A study of Arabidopsis thaliana with 6 samples.

Results

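Calcium sensor, calcium channel and IQD genes were examined in rosettes of the Arabidopsis catalase mutant cat2-2. A gene was taken as a member where a probe set of the ATH1 array named that gene alone and its symbol consisted of IQD, CML, CAM, CBL, CIPK, CPK, CDPK, CNGC, GLR, ACA or CAX and a number. This gave 30 genes of the 13356 that the array's annotation could name, 15 IQD, 7 CML and 8 GLR genes, each with 1 probe set. For the other 8 prefixes no probe set met the rule, so calmodulins, calcium-dependent and CBL-interacting kinases, CNGC channels and calcium pumps and exchangers with these symbols were not analysed here. One further probe set, which names several GLR genes together, was left out.

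Calcium signalling works as a relay. Channels let calcium ions into the cytosol, EF-hand proteins bind the ions and change shape, and the proteins they then bind carry the signal on. GLR genes encode plant relatives of animal ionotropic glutamate receptors, which are amino acid-gated cation channels known from wound signalling and defence. CML genes encode calmodulin-like EF-hand sensors, many of them known as stress-responsive genes. IQD genes encode proteins with IQ motifs that bind calmodulin and calmodulin-like sensors, and many IQD proteins are scaffolds at microtubules and the plasma membrane with a part in cell shape. Calcium signals and hydrogen peroxide are known to act on each other in leaves.

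All 6 arrays held RNA of cat2-2 rosettes in the Col-0 background, a mutant in the main leaf catalase, grown on agar medium with sucrose under days of 16 h light. Untreated rosettes were sampled at 0 h from plants 21 days old, in 3 biological replicates of at least 15 rosettes each. Treated rosettes, also in 3 replicates, came from plants of 22 days that had spent 24 h in continuous light on plates wrapped in parafilm to limit gas exchange, named photorespiratory conditions in the labels. Both groups carry the mutation, each plate also held plants of a second genotype, shr-6 cat2-2, and neither that genotype nor a wild type was analysed here. Sealing, continuous light and the extra day of age cannot be told apart. Levels are RMA log2 values, differences are treated minus untreated on that log2 scale with n = 3 arrays per group, and the value after ± is the standard error (SE) of that difference. Each adjusted p-value comes from limma, corrected by Benjamini-Hochberg over the 22746 probe sets tested, and a gene is said to have risen or fallen where this value was below 0.05.

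Array medians lay between 6.22 and 6.27, and over probe sets Pearson's r reached 0.996 to 0.997 for pairs of arrays from 1 group and 0.955 to 0.966 for pairs from different groups. The labelled tissue was checked against its markers. Of these, 4 of 8 leaf photosynthesis genes were measured (RCA, PRK, SBPASE and LHCB4.1). All 4 lay at or above the 99.1st percentile of mean levels, and 1 of the 4 fell. Their summed level, the log2 of the sum of their unlogged levels, was 15.52 to 15.55 untreated and 15.54 to 15.59 treated. Such a sum mostly follows the brightest genes. Of other cell types, 3 of 5 guard cell lineage genes were measured, at the 25.5th to 47.8th percentile, and 1 of the 3 was lower. Their summed levels were 6.92 to 7.07 untreated and 6.95 to 6.99 treated. Both root hair genes lay at the 25.8th to 39.6th percentile, with summed levels of 5.88 to 6.23 untreated and 5.87 to 6.02 treated. Whether these genes were above background was not tested. None of the 4 vascular or 5 flower and pollen markers was measured. Their part in the results below was not tested. As a sign of RNA quality, the 3' minus 5' level of actin, GAPDH and ubiquitin, each with a pair of probe sets from 2 designs, moved with the treatment, and the groups did not overlap in 5 of the 6 pairs. In the design marked Athal the treated minus untreated difference of this level was -0.30 for actin, -0.31 for GAPDH and -0.07 for ubiquitin, the pair with overlapping groups, and in the design marked r2 it was 0.13, 0.10 and 0.13. Several members changed by no more than this, and the part of RNA quality in those changes was not tested. In whole rosettes, fewer cells of a type and less RNA per cell cannot be told apart.

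Of the 30 genes, 10 rose, 10 fell and 10 did not pass the test. In all, 41.7% of probe sets and 37.7% of genes changed, 17.0% of genes higher and 20.6% lower, so change as such was common. The families differed in direction. Of 7 CML genes 6 rose and none fell in the limma test, all 7 differences being positive, with a median of 0.58. Of 15 IQD genes 8 fell and 2 rose, with a median of -0.28. Of 8 GLR genes 2 rose and 2 fell, with a median of 0.04, against a median of -0.01 over all 13356 genes. Counts and medians describe these genes, and the families were not tested against each other.

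**Figure D1:**
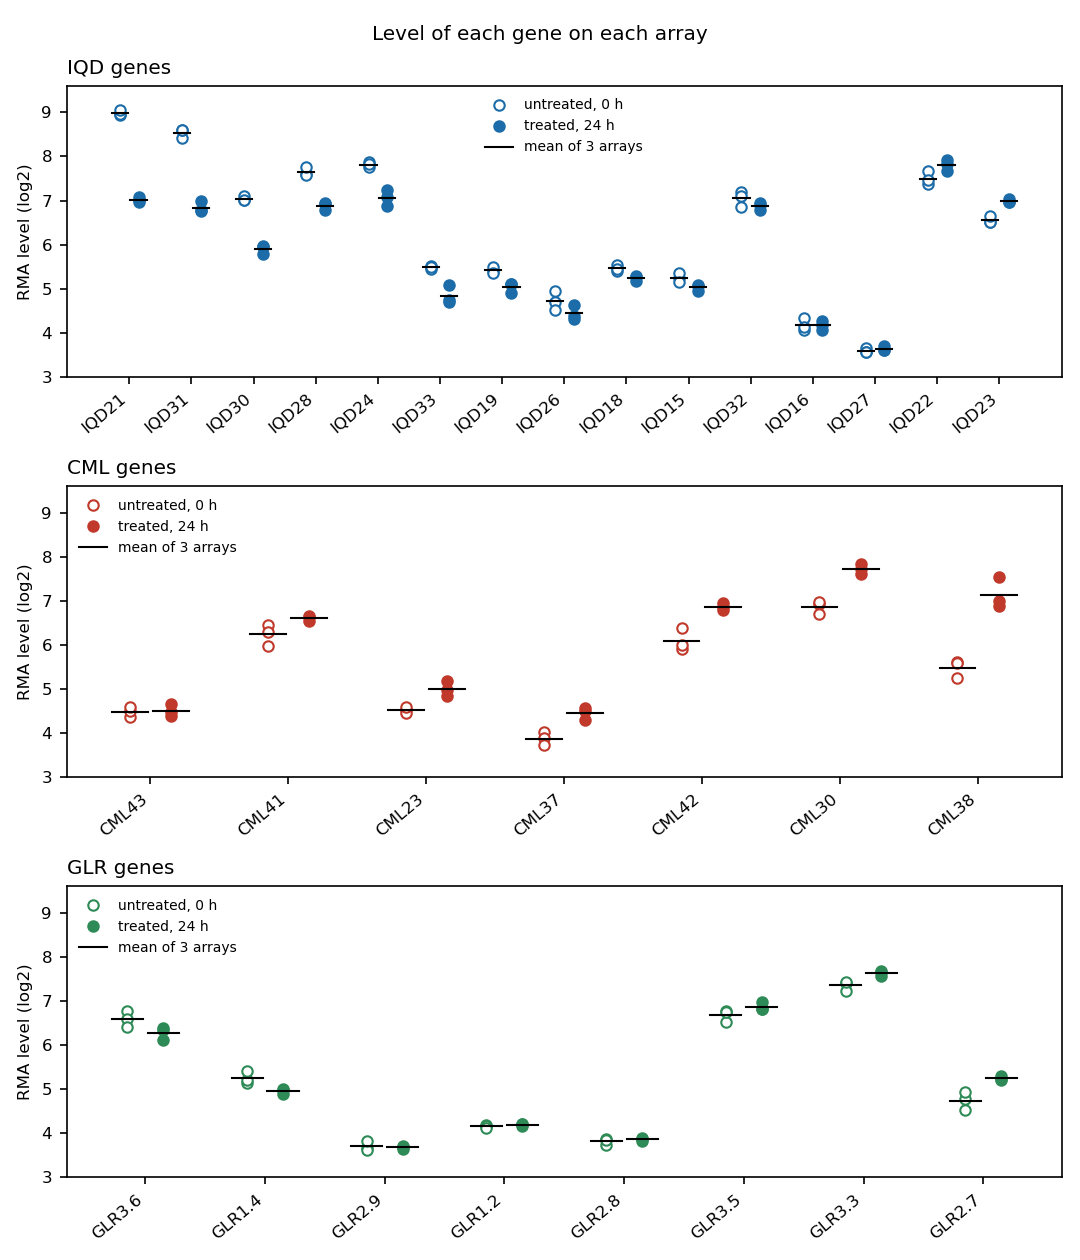
RMA log2 level of each gene on each of the 6 arrays, by family, with genes ordered by their difference (open circles, untreated; filled circles, treated; bars, mean of 3 arrays). The treated circles of IQD21 lie near 7.0 and its untreated circles near 9.0. For 6 of 7 CML genes every treated circle lies above every untreated one, which held for 2925 of all 13356 genes.

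CML38, a calmodulin-like gene known for strong induction by low oxygen and by wounding, had the largest increase of all 30 genes. It stood at 5.24, 5.61 and 5.58 in the untreated replicates and at 7.55, 6.99 and 6.88 in the treated ones. The lowest treated array thus lay more than 1 log2 unit above the highest untreated array, and the treated arrays differed among themselves more than the untreated ones (SD 0.36 and 0.20). The difference was 1.67 ± 0.16 (3.17-fold; adjusted p = 6.63e-06), the 166th largest increase among the 13356 genes. Without treated replicate 1, its highest array, the difference was 1.46.

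CML30, whose product is known from mitochondria, stood at 6.93, 6.98 and 6.69 untreated and at 7.84, 7.72 and 7.61 treated. Its groups were far apart compared with their spread, and it rose by 0.86 ± 0.10 (1.81-fold; adjusted p = 2.56e-05). CML42, which has a part in trichome branching and in responses to herbivores, stood at 5.90, 6.38 and 5.99 untreated and at 6.86, 6.95 and 6.78 treated. The untreated arrays were the more variable ones, and all lay below the treated arrays. CML42 rose by 0.77 ± 0.12 (1.71-fold; adjusted p = 0.00026).

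CML37, a sensor known from jasmonate-linked defence against herbivores, stood at 4.02, 3.89 and 3.71 untreated and at 4.49, 4.57 and 4.30 treated, and CML23, linked in earlier genetics to flowering time and nitric oxide, at 4.52, 4.46 and 4.58 untreated and at 5.19, 4.98 and 4.83 treated. Both were dim, at the 19.3rd and 30.6th percentile of mean levels, and in neither did the groups overlap. CML37 rose by 0.58 ± 0.10 (adjusted p = 0.00064) and CML23 by 0.48 ± 0.10 (1.39-fold; adjusted p = 0.00176). At such levels a fold change on RMA values can understate a change, and whether the untreated arrays were above background was not tested.

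CML41, known for callose deposition at plasmodesmata in immunity, stood at 6.46, 5.97 and 6.29 untreated and at 6.66, 6.62 and 6.55 treated. The groups were close, with untreated replicate 2 the lowest array, and the increase of 0.37 ± 0.11 (adjusted p = 0.0204) shrank to 0.24 (adjusted p = 0.0641) without that replicate. The call was also lost without treated replicate 1 or 2 (0.35 and 0.36). The remaining sensor, CML43, a defence-linked gene and a dim one at the 26.1st percentile, had overlapping groups at 4.35 to 4.59 untreated and 4.39 to 4.65 treated. Its difference was 0.03, with a 95% confidence interval of -0.18 to 0.24 (limma, adjusted p = 0.865). As for CML37 and CML23, RMA values this low can understate a change.

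**Figure D2:**
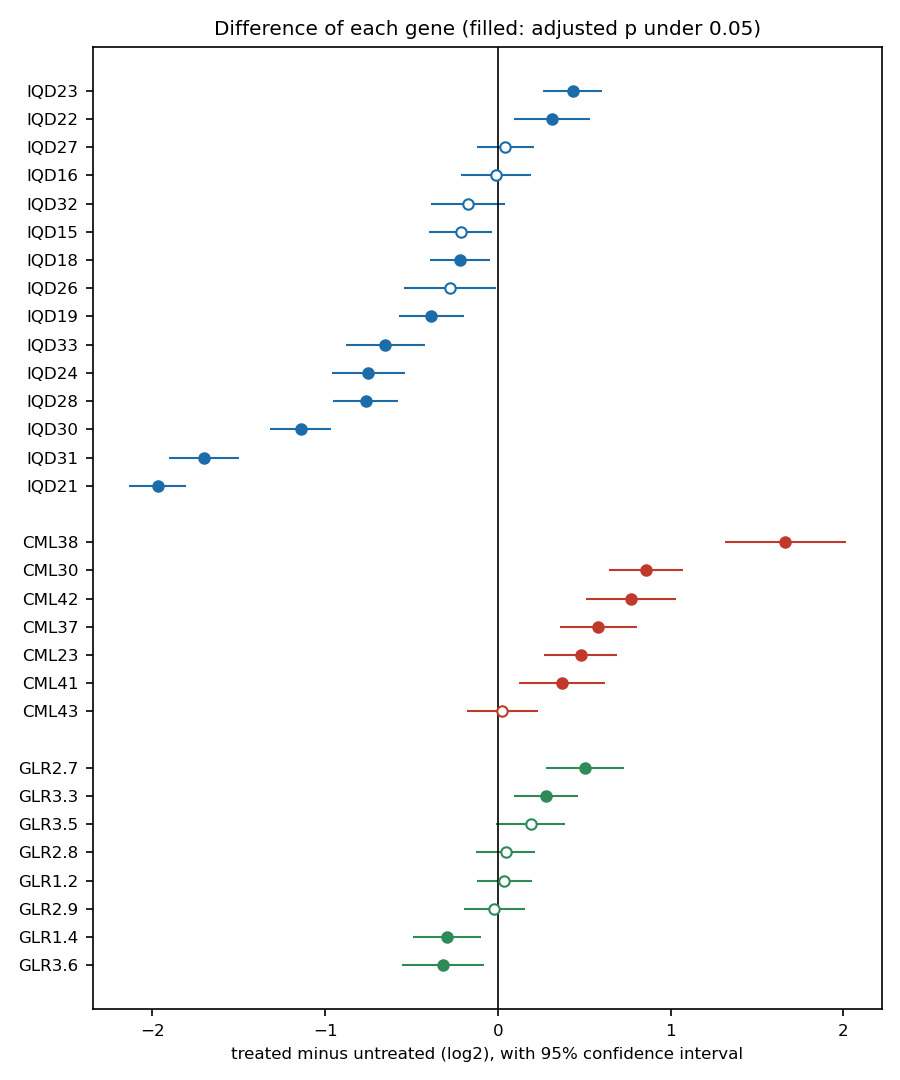
Difference of each gene, treated minus untreated in log2 units, with its 95% confidence interval from limma; filled points passed an adjusted p of 0.05. CML points lie at or right of 0, from 0.03 to 1.67, while IQD points run from -1.97 to 0.43.

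Among the calmodulin-binding IQD genes, IQD21 fell most. It stood at 8.95, 8.97 and 9.05 untreated and at 7.08, 7.02 and 6.96 treated. Replicates within a group differed by little (SD 0.05 and 0.06) against a gap of almost 2 log2 units. The difference was -1.97 ± 0.08 (3.92-fold lower; adjusted p = 9.6e-09), the 66th largest decrease among the 13356 genes. IQD31 stood at 8.42, 8.59 and 8.61 untreated and at 6.75, 6.99 and 6.77 treated, and fell by 1.70 on the log2 scale (SE 0.09; 3.25-fold lower; adjusted p = 8.51e-08). IQD30 stood at 7.01, 7.10 and 7.00 untreated and at 5.78, 5.96 and 5.94 treated, and fell by 1.14 on the log2 scale (SE 0.08; 2.21-fold lower; adjusted p = 5.68e-07). In none of these did an array of one group reach the range of the other. With CML38, they were the 4 members that changed at least 2-fold, where 6.65% of all genes did.

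Smaller decreases with groups that did not overlap followed in IQD28, IQD24 and IQD33. IQD28 stood at 7.59, 7.57 and 7.77 untreated and at 6.78, 6.95 and 6.91 treated (difference -0.77 ± 0.09; adjusted p = 2.29e-05). IQD24 stood at 7.87, 7.76 and 7.82 untreated and at 6.89, 7.24 and 7.08 treated (difference -0.75 ± 0.10; adjusted p = 6.8e-05). For both, the treated arrays lay at least 0.5 log2 units below every untreated array. IQD33, a dimmer gene at the 36.5th percentile, stood at 5.52, 5.45 and 5.50 untreated and at 5.09, 4.74 and 4.70 treated, with treated replicate 1 nearest to the untreated arrays (difference -0.65 ± 0.10; adjusted p = 0.00034).

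IQD19 and IQD18 fell by less and less firmly, and both were dim, at the 37.3rd and 38.9th percentile of mean levels. IQD19 stood at 5.41, 5.50 and 5.35 untreated and at 5.10, 4.90 and 5.10 treated, a difference of -0.38 ± 0.08 (adjusted p = 0.00322) that did not pass with the arrays anchored on the brighter poly(A) spikes (-0.23) or the hybridization controls (-0.28). IQD18 stood at 5.39, 5.54 and 5.44 untreated and at 5.17, 5.25 and 5.29 treated. Its groups were close to touching, and the difference of -0.22 ± 0.08 (adjusted p = 0.0453) lost its call in 14 of 18 alternatives, among them leaving out treated replicate 1 (-0.18), 2 (-0.23) or 3 (-0.25) or untreated replicate 2 (-0.18) or 3 (-0.23).

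The family was not uniform, since IQD23 and IQD22 rose. IQD23 stood at 6.50, 6.51 and 6.64 untreated and at 6.96, 6.96 and 7.05 treated (difference 0.43 ± 0.08; adjusted p = 0.00076). IQD22, known from responses to gibberellin, stood at 7.67, 7.37 and 7.46 untreated and at 7.93, 7.67 and 7.83 treated (difference 0.31 ± 0.10; adjusted p = 0.0245). The groups of IQD23 were well apart, while treated replicate 2 of IQD22 barely exceeded untreated replicate 1. IQD22 no longer passed when untreated replicate 2 (0.25) or 3 (0.29) was left out, or treated replicate 1 (0.26) or 3 (0.30).

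The other 5 IQD genes did not pass. IQD26 (-0.28; adjusted p = 0.0908), IQD15 (-0.21; adjusted p = 0.0604) and IQD32 (-0.17; adjusted p = 0.189) had negative differences, and the groups of IQD15 did not overlap. Each of these passed in at least 1 fit that left out an array. IQD26 passed without untreated replicate 3 (-0.38; adjusted p = 0.0296) or treated replicate 3 (-0.37; adjusted p = 0.0366), and its difference was -0.16 without untreated replicate 1. IQD15 passed without untreated replicate 3 (-0.26; adjusted p = 0.0408), and IQD32 without untreated replicate 2 (-0.27; adjusted p = 0.0346), while the difference of IQD32 was -0.10 without untreated replicate 1. IQD16, known for its work with the microtubule-severing enzyme katanin, stood at 4.07 to 4.33 untreated and 4.07 to 4.25 treated, a difference of -0.01 (95% confidence interval -0.21 to 0.19). IQD27 had means of 3.59 untreated and 3.64 treated, a difference of 0.04 (95% confidence interval -0.12 to 0.21). IQD16 and IQD27 were among the dimmest members, at the 19.5th and 6.77th percentile, where loss of a transcript could hardly be seen. IQD26 and IQD15 lay at the 27.7th and 36.1st percentile.

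Contrasts between members of a family on the same array do not depend on shifts of whole arrays. IQD23 minus IQD21 was -2.45, -2.45 and -2.41 untreated and -0.12, -0.06 and 0.09 treated, a change of 2.40. The contrast of IQD22 with IQD24 changed by 1.06, from -0.20, -0.39 and -0.36 to 1.04, 0.43 and 0.76. The groups did not overlap in either contrast. Both pairs were chosen after the values were seen, so these are descriptions with no test.

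**Figure D3:**
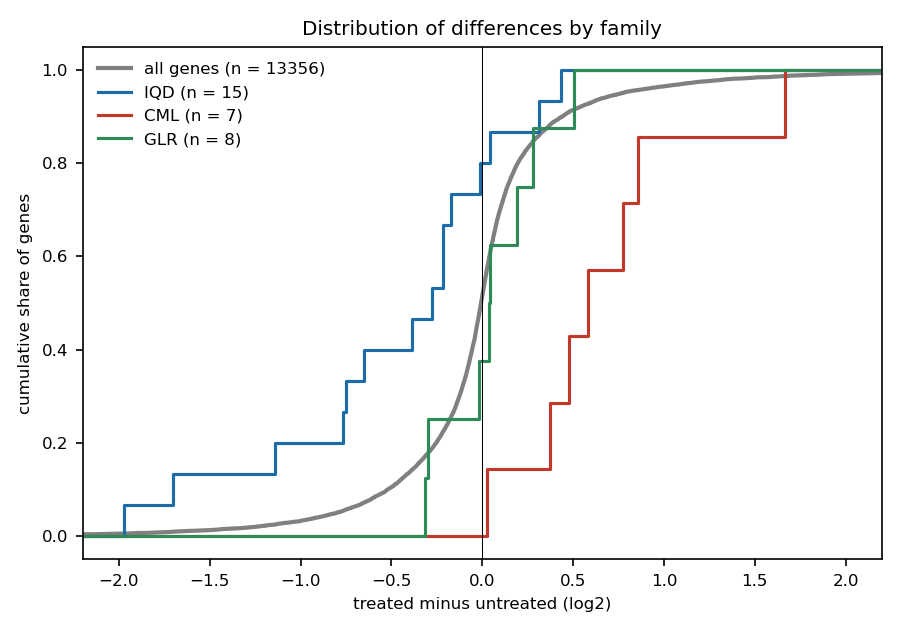
Cumulative share of genes by their difference, treated minus untreated in log2 units, for the IQD, CML and GLR genes and for all 13356 genes (grey). The CML line lies to the right of the grey line with a median of 0.58, the IQD line to its left over most of its length with a median of -0.28, and the GLR line near it with a median of 0.04.

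Differences of GLR genes were small, between -0.32 and 0.51. GLR2.7, a receptor-like channel gene known from calcium influx in pattern-triggered immunity, stood at 4.76, 4.52 and 4.93 untreated and at 5.23, 5.30 and 5.20 treated. The treated arrays lay close together above all untreated ones, and GLR2.7 rose by 0.51 ± 0.10 (1.42-fold; adjusted p = 0.00182). It was also a dim gene, at the 34.0th percentile of mean levels. The RefSeq gene order places GLR2.7, GLR2.8 and GLR2.9 side by side, with no protein-coding gene between GLR2.7 and GLR2.8. GLR2.8 stood at 3.73 to 3.87 untreated and 3.82 to 3.88 treated (difference 0.04; 95% confidence interval -0.12 to 0.21), and GLR2.9 at 3.62 to 3.81 and 3.65 to 3.71 (difference -0.02; 95% confidence interval -0.20 to 0.16). Both lay at or below the 11.4th percentile, so a change from such low levels may be compressed.

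GLR3.3 and GLR3.6, which together carry wound signals from leaf to leaf, were called in opposite directions, in calls that were not firm. GLR3.3 stood at 7.40, 7.21 and 7.43 untreated and at 7.56, 7.68 and 7.65 treated (difference 0.28 ± 0.08; adjusted p = 0.0203). GLR3.6 stood at 6.77, 6.59 and 6.41 untreated and at 6.10, 6.34 and 6.37 treated (difference -0.32 ± 0.11; adjusted p = 0.0338). Both shifts were small, and in each gene 1 group's edge lay close to the other's. The call of GLR3.3 was lost without untreated replicate 2 (0.21) or treated replicate 2 (0.25) or 3 (0.27). GLR3.6 did not pass when untreated replicate 1 (-0.23) or 2 (-0.32) was left out, nor on leaving out treated replicate 1 (-0.23) or 2 (-0.35), and after each of the 5 rescalings, of which anchoring on the brighter poly(A) spikes gave -0.16.

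GLR1.4, known as a methionine-gated channel, stood at 5.14, 5.20 and 5.41 untreated and at 4.99, 4.88 and 4.99 treated. All treated arrays lay below the untreated ones, and GLR1.4, a dim gene at the 35.6th percentile, fell by 0.30 on the log2 scale (SE 0.09; adjusted p = 0.0195). The call was lost without untreated replicate 3 (-0.22) or treated replicate 2 (-0.26) and with arrays anchored on any set of control transcripts (-0.23, -0.14 and -0.19). GLR3.5 stood at 6.76, 6.53 and 6.74 untreated and at 6.81, 6.98 and 6.81 treated, and its difference of 0.19 (adjusted p = 0.12) passed in 2 of 19 alternatives, with arrays anchored on the poly(A) spikes, all of them (0.26) or the brighter ones (0.34). GLR1.2, a gene known from pollen tubes, lay at the 19.6th percentile, at 4.11 to 4.19 untreated and 4.16 to 4.21 treated (difference 0.04; 95% confidence interval -0.12 to 0.20).

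Over all members, the groups did not overlap for 22 of 30 genes, 11 with higher and 11 with lower treated arrays. Of all 13356 genes, 47.1% had groups that did not overlap, 2925 with higher and 3370 with lower treated arrays. The 22 comprised 11 IQD, 6 CML and 5 GLR genes. Averaged over its 7 genes, the CML family stood at 5.34, 5.40 and 5.35 untreated and at 6.15, 6.03 and 5.94 treated. The mean over 15 IQD genes stood at 6.38, 6.33 and 6.34 untreated and at 5.84, 5.87 and 5.84 treated. Its difference of -0.50 was larger in size than the family median of -0.28. IQD21, IQD31 and IQD30 weigh most in this mean (-1.97, -1.70 and -1.14), while of all 15 genes 8 fell, 2 rose and 5 did not pass. The spread within groups (SD) was 0.03 untreated and 0.10 treated for the CML mean and 0.03 and 0.02 for the IQD mean. The CML mean minus the IQD mean was -1.04, -0.93 and -0.99 untreated and 0.31, 0.16 and 0.10 treated, a change of 1.18. The GLR mean stood at 5.30, 5.21 and 5.34 untreated and at 5.31, 5.36 and 5.35 treated, with overlapping groups.

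The directions of the CML and IQD medians held under each of the 5 rescalings, while the balance of calls moved. Anchoring on the brighter poly(A) spikes raised the median of all genes by 0.15 and gave medians of 0.73 for CML, -0.12 for IQD and 0.19 for GLR. In that setting 11 members rose and 6 fell, so that 64.7% of changed members were the higher ones, against 50.0% on the deposited scale, and for all changed genes the share went from 45.2% to 69.9%. With the hybridization controls as anchor the members' share was 62.5%, and with all poly(A) spikes 61.1%. The CML count of 6 higher was the same in all 5, and the IQD counts were 2 higher and 6 or 7 lower.

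**Figure D4:**
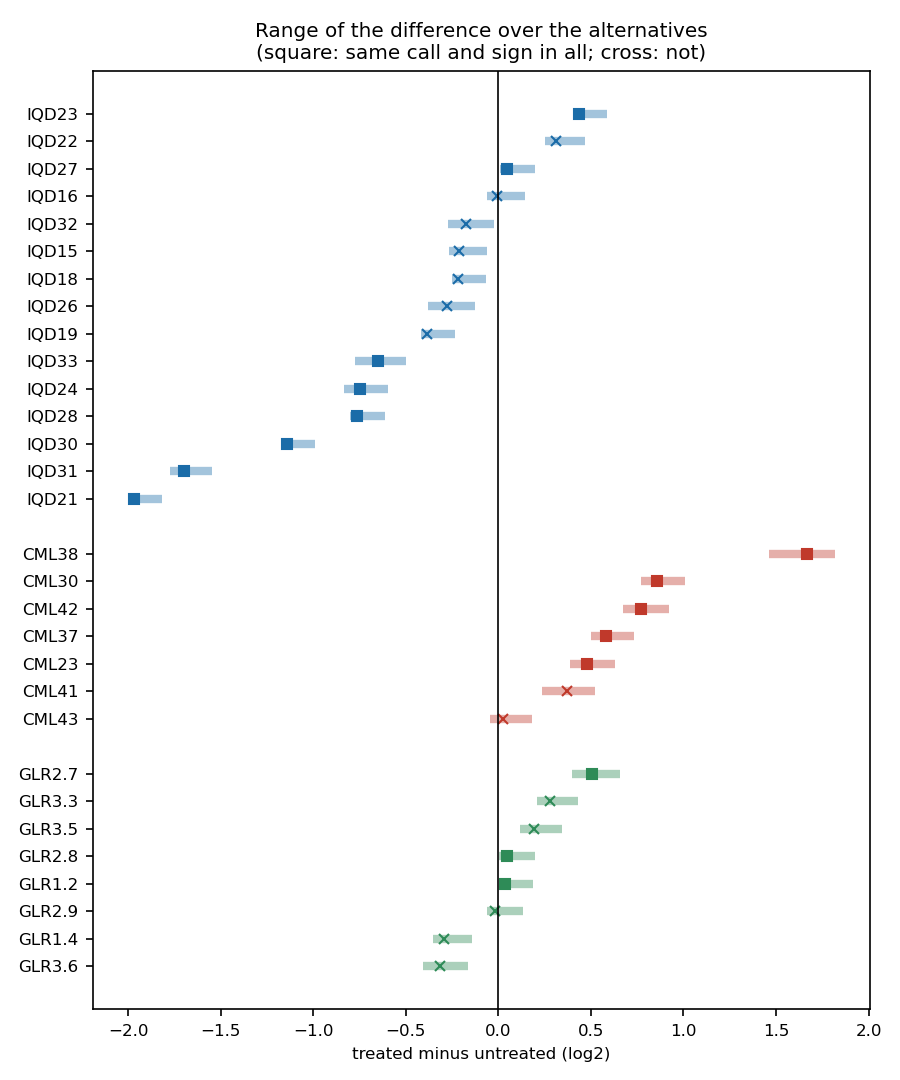
Difference of each gene as reported (symbols) and its range over up to 19 alternatives in scaling, moderation, filtering and omitted arrays (pale bars), in log2 units; squares mark genes whose call and sign were the same in every alternative that tested them. The bars of CML38, IQD21, IQD31 and IQD30 stay far from 0, and those of IQD18, GLR3.6 and GLR1.4 reach towards it.

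Genes of calcium signalling outside these families were looked up from lists of 60 loci that comprise calmodulin-binding transcription factors, CDPK-related kinases, other IQ-motif proteins, channels and carriers, annexins, calreticulins and calnexins, and known targets. Of these loci 18 were measured, of which 4 rose, 7 fell and 7 did not pass, where 37.7% of all genes changed, 17.0% higher and 20.6% lower. With arrays anchored on the brighter poly(A) spikes, 7 of the 18 rose and 6 fell. In that setting 10717 probe sets changed, against 9479 on the deposited scale. Of all changed genes 69.9% were then higher, against 45.2%. The shares of 17.0% and 20.6% belong to the deposited scale, so they are no base for the counts with this anchor. RefSeq gives only 2 of the 18 a name, and both fell. CaS, the calcium-sensing protein of the chloroplast thylakoid, stood at 12.11, 12.16 and 12.17 untreated and at 10.95, 11.03 and 10.86 treated (difference -1.20 ± 0.08; 2.29-fold lower; adjusted p = 3.09e-07). CRT1b, an endoplasmic reticulum calreticulin that stores calcium and helps proteins fold, stood at 9.68, 9.88 and 9.52 untreated and at 8.90, 8.94 and 9.00 treated (difference -0.74 ± 0.10; adjusted p = 7.2e-05). The groups of both genes were far apart. No annexin of the list was measured.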

How the data were processed

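The authors deposited a table of log2 levels, 1 row per probe set. RMA is named as its method in the submitters' processing notes, without a version. The sources used here do not say which arrays were normalized together, and the table holds no detection calls. The table held 0 columns of other samples. The number of arrays limits the precision, and whether the replicates, labelled biological, came from separate plates is not stated.

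Of 22810 probe sets, 64 are control sets, and the other 22746 all entered the test, dim ones included. The platform's annotation, updated through RefSeq's TAIR10.1 gene table (names and gene order only), gave 13513 probe sets 1 gene, 503 several and 8730 none. Where a gene had several probe sets, the brightest by mean was used; all 30 members had a RefSeq locus and 1 probe set without shared probes. Of the members, 15 were left by a filter on the dimmest 40% of probe sets, which was run as an alternative. No sequence is shown.

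The test was limma 3.58.1 in R 4.3.3 (lmFit, eBayes at default settings, no covariates, two-sided). Python 3.11.15, pandas 2.3.3 and matplotlib 3.10.9 made tables and plots, and the steps were tested on simulated data.

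Members and lists were chosen with earlier results of these data known. By rule, the 10 largest increases and decreases past the threshold are given array by array, which here comprise every changed member. Loci whose RefSeq symbol follows the members' own rule (3) were taken off the wider lists. Genes without a RefSeq name are only counted. No pairing by replicate number was seen in the values: deviations of same-numbered arrays from their group means correlated at 0.07, -0.06 and 0.00077. Such values cannot tell whether same-numbered replicates were grown or handled together.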

Additional observations from a re-analysis of the deposited data

How the results depend on the processing

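Of the 20 changed members, 13 (7 higher, 6 lower) had the same call in each of the 18 or 19 alternatives that tested them, and none changed sign. The count of members lower came to 6, against 10, with arrays anchored on the brighter poly(A) spikes, on the hybridization controls or without the dimmest 40% of probe sets, the last of which tested fewer genes and gave 5 IQD genes lower, 1 GLR gene higher and 1 lower. The 2 GLR genes lower became 1 with the replicate number as a block, with equal medians or repeated quantile normalization, and 0 with any of the 3 anchors, without moderation or at an adjusted p of 0.01. Without moderation or at 0.01, IQD and GLR genes higher came to 1 each. Wider-list loci higher came to 7, against 4, with the brighter spikes, where 69.9% of all changed genes were higher, against 45.2% on the deposited scale. With single arrays left out, members higher ranged from 7 to 10, members lower from 7 to 10 and IQD genes higher from 1 to 2. GLR genes higher ranged from 1 to 2 and GLR genes lower from 0 to 2, and the cause was not tested. Calls over all probe sets moved as well, from 9479 to 8913, 8614 and 8821 without untreated replicate 1, 2 and 3. They came to 10717 with the brighter spikes, 7975 with the hybridization controls and 7436 without moderation. Without the dimmest 40% of probe sets, 8462 changed. With the replicate block, 10 members rose and 8 fell, and 9190 probe sets changed against 9479; IQD18 and GLR3.6 were the members that lost their call. Of unchanged members, IQD16 turned to 0.017 (equal medians), 0.059, 0.14 and 0.095 (anchored on all spikes, brighter spikes, hybridization controls), and ranged from -0.063 to 0.068 with single arrays left out. In the same order of scalings, GLR2.9 turned to 0.0072, 0.049, 0.13 and 0.085, and it ranged from -0.060 to 0.038 with single arrays left out, CML43 from -0.046 to 0.085. The lowest-mean probe set and the platform symbol gave the same members, and RefSeq synonyms added 1 gene, AT1G76640. Low signal limits the 15 dimmer members, and whether they were above background was not tested.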

Other observations

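Calcium-related words in RefSeq's names and synonyms point to further genes that the symbol rule and the wider lists leave out. These genes were picked after the tables were seen. AT1G76640, which lies next to CML38 with 0 protein-coding genes between them and has the synonym CML39 (given by RefSeq to CML37 as well), stood at 4.23, 4.19 and 3.88 untreated and at up to 4.31 treated. Its groups overlapped, with a difference of 0.04 (95% confidence interval -0.21 to 0.29; limma, adjusted p = 0.838), while CML38 rose 3.17-fold. It is a dim gene, at the 18.3rd percentile, and the difference between these neighbours was not tested.

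AT1G53210, described as the sodium/calcium exchanger NCL, stood at 11.37, 11.24 and 11.41 untreated and at 11.52, 11.52 and 11.53 treated. Every treated array lay above the untreated ones, but the difference of 0.18 did not pass (adjusted p = 0.0882). ACA.l, an ATPase gene, stood at 6.18 to 6.43 untreated and 6.19 to 6.38 treated (difference -0.0019; adjusted p = 0.991). It was found by the wording of a RefSeq synonym alone, and whether it is a calcium pump was not tested. AT4G35987, the calmodulin N-methyltransferase gene, stood at 5.58, 5.70 and 5.76 untreated and at 5.54, 5.43 and 5.36 treated. It fell by 0.23 on the log2 scale (SE 0.08, limma adjusted p = 0.0441). Whether this call held in the alternatives was not examined.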
